A study of Mus musculus with 5 samples.

Results

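The genes *Cd3e*, *Cd3d*, *Cd3g*, *Cd247*, *Lck*, *Zap70*, *Lat* and *Lcp2* encode the CD3 complex and the proximal signalling proteins of the T cell receptor (TCR), and their chromatin accessibility (ChrAcc) was examined by DNase-seq in naïve CD8+ T cells with and without the transcription factors Tcf1 and Lef1. Every peak whose summit lay within the gene body or 20 kb on either side was taken, in mm9 coordinates. This gave 98 of the 56641 deposited peaks, of which 52 were among 31116 WT peaks and 46 among 25525 dKO peaks. Because *Cd3g*, *Cd3d* and *Cd3e* are neighbours on chromosome 9, the 8 genes formed 6 loci. After the criteria for a ChrAcc site (fold enrichment of at least 4 over the local background, p under 1e-05 and q under 0.05), 56 sites remained of 31898 in both lists together, with 47 in the WT and 42 in the dKO list. The other 5 WT and 4 dKO peaks missed the 4-fold criterion.

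WT cells (3 replicates) came from mice with wild-type *Tcf7* and *Lef1*, and dKO cells (2 replicates), labelled Tcf1-/-Lef1-/-, from mice with floxed alleles (fl/fl) of both genes, *Tcf7* encoding Tcf1. Mice of both groups carried the *hCD2-Cre* transgene and the *Rosa26* GFP reporter. The mice were young adults of both sexes on the C57BL/6 background. The cells were GFP+ TCRbeta+ CD62Lhi CD44lo-med CD8+ splenocytes, and *hCD2-Cre*, which the human CD2 promoter drives in lymphocytes, does not recombine in every cell, for which reason GFP was used to mark the cells kept. Replicates of a genotype had been pooled by the authors before peak calling, so the values below belong to 1 WT pool of 83923734 fragments and 1 dKO pool of 62242963 fragments. No spread between replicates and no test between genotypes can be had from them, the WT pool was 1.35 times deeper, and every interval given is a 95% interval for counting error only.

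The TCR has no signalling tail of its own. It signals through the CD3 epsilon, delta and gamma chains (*Cd3e*, *Cd3d*, *Cd3g*) and the zeta chain (*Cd247*), whose tyrosine motifs are phosphorylated by the kinase Lck, which CD8 brings to the receptor. The kinase Zap70 then docks on these motifs and phosphorylates the adaptors Lat and SLP-76, the product of *Lcp2*, on which the downstream enzymes assemble. DNase I cuts open chromatin preferentially, so promoters and enhancers in use appear as ChrAcc sites.

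The sequences of 9 of the sites are shown before their values, from the plus strand of the mm9 assembly, 100 bp to each side of the summit, with exons of coding transcripts left out. The sites of *Lat*, *Cd247* and *Lck* near a transcription start site (TSS) stood in both lists and serve as references. The *Cd3d* TSS site, the site beside *Cd3g* and the *Lck* and *Zap70* intron 1 sites hold the Tcf/Lef core motif. The last 2 sequences are the strongest site found in WT only and the strongest found in dKO only. Capitals mark ATCAAAG (Tcf/Lef), AACCACA (Runx) or AGGAAGT (Ets) on either strand, and CAGCTG (E box), searched in the same way, was not within these stretches.
Lat TSS site, chr7:133513058-133513185: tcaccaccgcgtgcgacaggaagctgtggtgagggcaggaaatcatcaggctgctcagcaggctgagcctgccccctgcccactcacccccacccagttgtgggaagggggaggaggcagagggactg
Cd247 TSS site, chr1:167718699-167718811: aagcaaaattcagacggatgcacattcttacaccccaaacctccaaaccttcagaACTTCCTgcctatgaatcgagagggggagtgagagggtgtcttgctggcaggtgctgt
Lck distal promoter site, chr4:129250886-129251022: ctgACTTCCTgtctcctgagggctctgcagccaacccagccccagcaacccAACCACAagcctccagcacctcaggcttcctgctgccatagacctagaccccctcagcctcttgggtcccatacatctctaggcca
Cd3d TSS site, chr9:44789748-44789875: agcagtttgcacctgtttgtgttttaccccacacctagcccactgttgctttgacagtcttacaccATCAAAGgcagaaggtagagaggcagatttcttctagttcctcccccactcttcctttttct
Ube4a intron 4 site, beside Cd3g, chr9:44762613-44762813: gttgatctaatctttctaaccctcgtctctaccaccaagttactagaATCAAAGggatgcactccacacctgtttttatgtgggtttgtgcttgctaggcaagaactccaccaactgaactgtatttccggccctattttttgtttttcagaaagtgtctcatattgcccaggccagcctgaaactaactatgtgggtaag
Lck intron 1 site, chr4:129242595-129242795: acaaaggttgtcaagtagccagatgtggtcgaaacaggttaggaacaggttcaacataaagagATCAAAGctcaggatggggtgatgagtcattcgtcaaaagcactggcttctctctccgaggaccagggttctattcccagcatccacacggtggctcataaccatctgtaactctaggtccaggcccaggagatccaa
Zap70 intron 1 site, chr1:36823756-36823956: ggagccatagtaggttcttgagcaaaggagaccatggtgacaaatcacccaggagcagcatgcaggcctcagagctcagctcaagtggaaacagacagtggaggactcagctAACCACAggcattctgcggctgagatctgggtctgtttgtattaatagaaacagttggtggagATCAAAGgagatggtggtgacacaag
Lck upstream site, chr4:129262532-129262732: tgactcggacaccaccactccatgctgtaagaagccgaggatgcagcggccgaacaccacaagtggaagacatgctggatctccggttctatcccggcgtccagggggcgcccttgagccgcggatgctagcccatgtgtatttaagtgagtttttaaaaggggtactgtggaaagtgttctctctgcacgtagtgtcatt
Cd247 intron 5 site, chr1:167788610-167788805: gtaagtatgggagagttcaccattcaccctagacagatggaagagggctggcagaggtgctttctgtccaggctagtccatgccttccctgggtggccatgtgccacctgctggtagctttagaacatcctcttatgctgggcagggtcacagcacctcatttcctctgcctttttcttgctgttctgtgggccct

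Sites were dense around these genes. In WT cells the 8 gene windows held between 5.86 (*Lcp2*) and 15.7 (*Cd3e*) ChrAcc sites per 100 kb, against a median of 2.07 over 22367 coding genes, and stood between percentile 80.9 and 99.3 of those genes. In dKO cells they held between 5.86 (*Lcp2*) and 11.8 (*Cd3e*) per 100 kb, between percentile 84.5 and 97.9, against a median of 1.75. All 8 genes had at least 1 WT site within 1 kb of a TSS of their own, and 7 of 8 had 1 in dKO. Of markers of other cells, none of 4 B cell, 4 myeloid, 2 NK cell and 2 CD4 T cell genes had a TSS site in either list, while 5 of 6 T cell markers had 1 in WT and 4 of 6 in dKO, with *Thy1* without any. Of these 6 markers, 3 are *Cd3e*, *Cd3d* and *Cd3g* themselves, so the check is only in part independent of the sites above, and the marker without a dKO site beside *Thy1* was *Cd3d*.

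Of the 56 sites, 33 were shared between WT and dKO CD8+ T cells, 14 were found in WT only and 9 in dKO only. The WT-only sites made up 29.8% of the 47 WT sites (95% Wilson interval 18.7 to 44.0), while over all sites 27.6% of WT sites were WT-only. The dKO-only sites made up 21.4% of the 42 dKO sites (11.7 to 35.9), and over all sites 14.6%. Under these criteria both shares of the 8 genes had intervals that held the share of all sites, and no intervals were computed for the alternatives. With lists of equal length, the 20000 most significant peaks of each, the order turned, with 9 of 32 WT sites WT-only (28.1%, against 19.7% of all) and 13 of 36 dKO sites dKO-only (36.1%, against 19.1%). The locus of *Cd247* held 4 of the 9 dKO-only sites, the CD3 cluster and *Lck* 2 each and *Lcp2* 1. The WT-only sites numbered 4 at the CD3 cluster, 4 at *Lck*, 3 at *Cd247* and 1 each at *Zap70*, *Lat* and *Lcp2*.

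**Figure D1:**
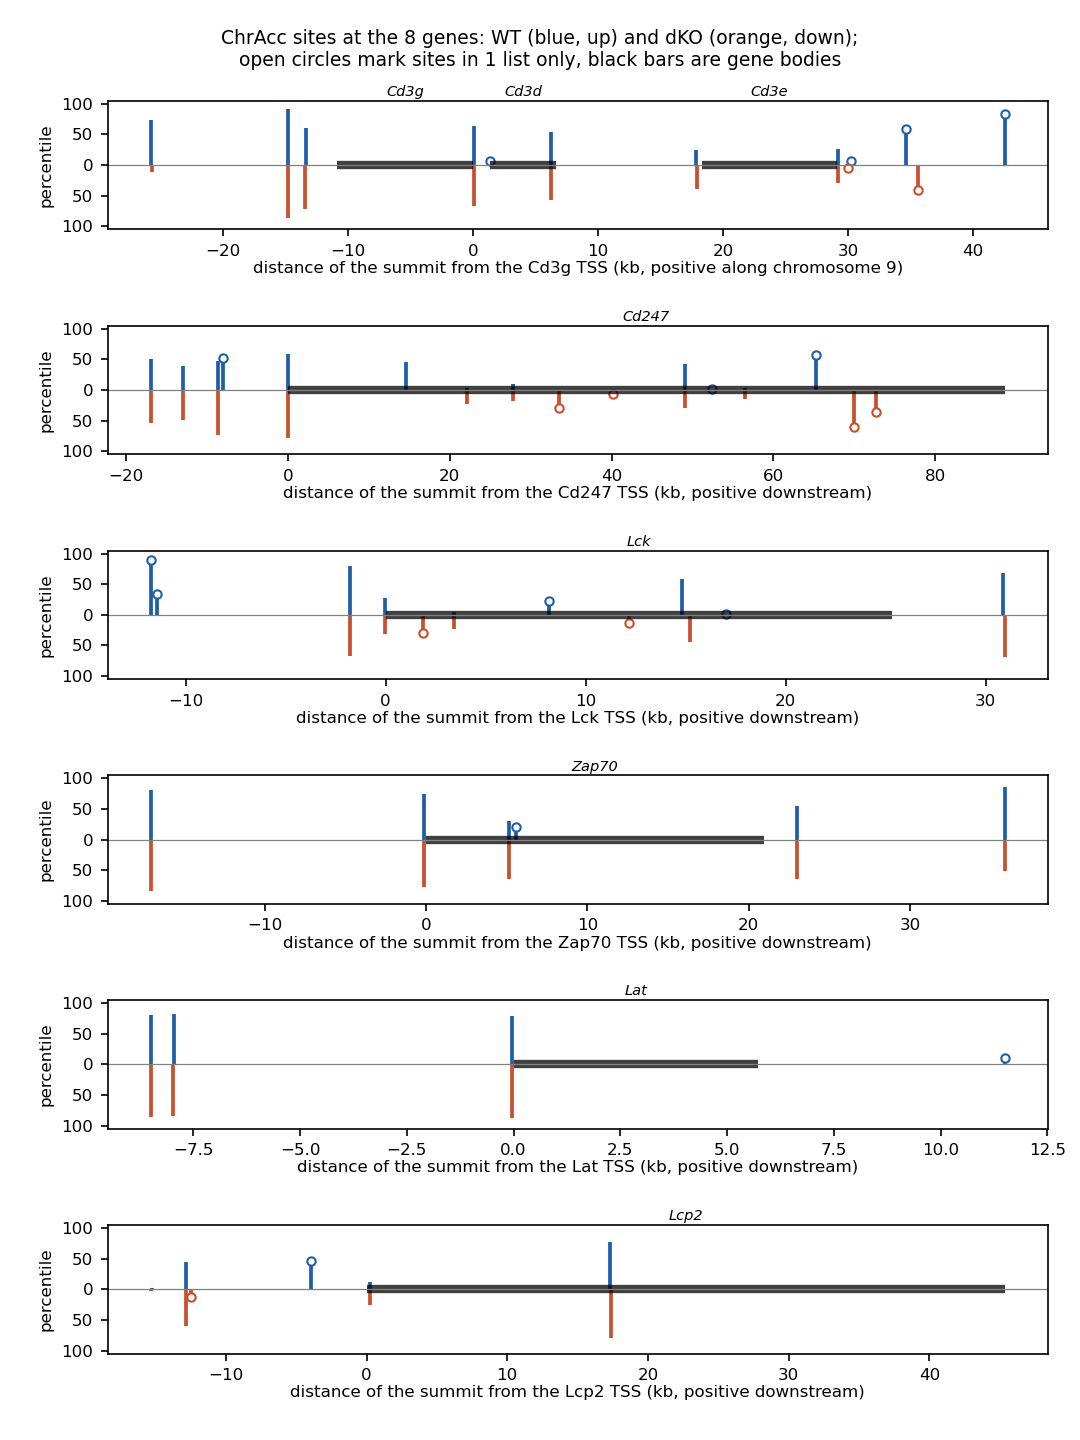
Each line is a ChrAcc site, placed by the distance of its summit from the TSS in kb, with its percentile of fold enrichment in the WT list above the axis (blue) and in the dKO list below it (orange). Black bars are gene bodies and open circles mark the 14 WT-only and 9 dKO-only sites. The WT-only site 11.7 kb upstream of *Lck* reaches 89.8, and the dKO-only sites in the 3′ part of *Cd247* have no blue line above them.

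Sites were compared by rank, since a deeper pool shifts fold enrichment. Each site was given the percentile of its fold enrichment among the sites of its genotype, from 100 for the highest to 0 for no site. The strongest site is the one of the highest percentile, unless pileup is named. Among the 33 shared sites, 3 ranked 20 or more percentile points higher in WT (9.09%, 3.14 to 23.6, against 13.6% of all shared sites), and 4 ranked 20 or more points higher in dKO (12.1%, 4.82 to 27.3, against 6.78%). The other 26 moved by less. By any amount, 26 of the 33 ranked higher in dKO (78.8%, 62.2 to 89.3), against 41.4% of all shared sites, and the median difference between the WT and dKO percentiles was -4.03 at the 8 genes and 2.50 over all shared sites. This lean was smaller when sites were ranked by pileup, which counts the fragments covering the summit, or by -log10 p. By pileup 16 of the 33 ranked higher in dKO (48.5%, against 36.4% of all shared sites), and by -log10 p 19 did (57.6%, against 37.9%).

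A 2nd measure that does not use the local background is the ratio of summit pileups per 1000000 fragments of each pool. Its median at the 33 shared sites was 1.003 (WT over dKO), and over all shared sites it was 1.10. Its exact binomial interval lay above that overall median at 3 of the 33 sites (9.09%, against 5.39% of all shared sites) and below it at 2 (6.06%, against 7.56%). The remaining 28 ratios could not be told from the overall median at this depth.

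**Figure D2:**
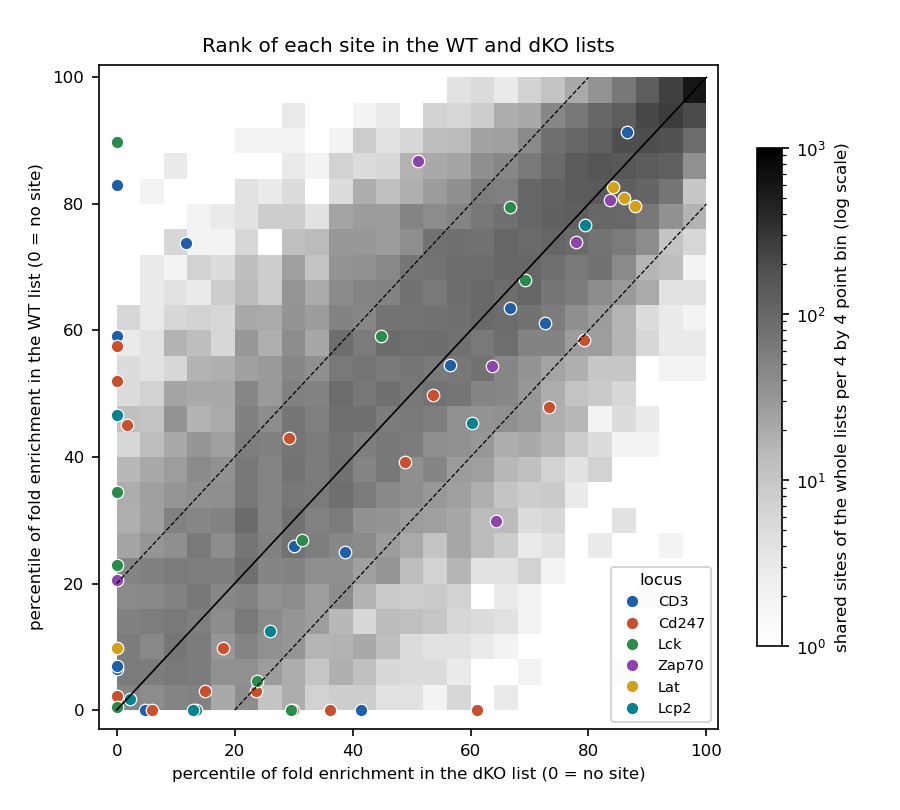
Percentile of fold enrichment in the dKO list (x axis) against that in the WT list (y axis) for the 56 sites, coloured by locus, over the density of all shared sites (grey, log scale). Dashed lines lie 20 points from the diagonal, and points on an axis are sites of 1 list only. Of the 33 shared sites 26 lie below the diagonal, 4 of them past the lower dashed line, which are 3 sites of *Cd247* and 1 of *Zap70*.

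The CD3 cluster on chromosome 9 had 13 sites, of which 7 were shared, 4 WT-only and 2 dKO-only. The TSS site of *Cd3g*, chr9:44788451-44788630, had a pileup of 86 fragments in WT and 54 in dKO and ranked at 63.5 and 66.6. The site across the *Cd3e* TSS, chr9:44817356-44817823, had percentiles of 25.97 in WT and 29.99 in dKO. The promoters of the gamma and epsilon chains thus kept their ranks within 5 points. The *Cd3d* TSS site, chr9:44789773-44789907, was called in WT only, with a summit 28 bp from the TSS. Its pileup of 54 fragments was close to the WT median of 57, but its local background of 11.2 fragments was above the median of 5.69, so that its fold enrichment was 4.49 and its percentile 6.55, just above the 4-fold criterion. The dKO list held no peak of any strength at the *Cd3d* TSS. Its core motif, shown above, was centred at -31 bp relative to the summit.

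*Cd3d* also had a shared site in exon 5, chr9:44794349-44794914, at percentile 54.6 in WT and 56.5 in dKO. The strongest site of the cluster in both lists was at the TSS of the neighbouring gene *Ube4a*, a ubiquitin ligase, with percentiles of 91.4 and 86.6. Of the other distal sites, those at chr9:44774973-44775151 (61.2 in WT, 72.6 in dKO) and chr9:44806297-44806535 (24.97 and 38.7) ranked higher in dKO by less than 20 points. The large shift of the cluster was at chr9:44762604-44762835 in intron 4 of *Ube4a*, 25.8 kb downstream of the *Cd3g* TSS. Its pileup was 61 fragments in WT and 20 in dKO, its percentile was 73.9 in WT and 11.8 in dKO, and its pileup ratio was 2.26 (1.35 to 3.96), the highest of the 33 shared sites. This site also holds the core motif, within 100 bp of its WT summit.

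Upstream of *Cd3e* lay a row of sites found in 1 list only. WT-only sites stood 1.10 kb (percentile 6.94), 5.49 kb (59.1) and 13.4 kb (83.0) upstream of its TSS, and dKO-only sites 809 bp (4.75) and 6.46 kb (41.3) upstream. The strongest, chr9:44831025-44831129, had a pileup of 70 fragments in WT and a fold enrichment of 13.2, and the dKO list held no peak there. The dKO-only site at 6.46 kb, chr9:44824051-44824217, had a pileup of 31 fragments, and WT had a peak of 19 fragments at the same place whose fold enrichment of 3.72 missed the criterion. That site therefore differed in strength rather than in presence.

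*Cd247*, which encodes the zeta chain, was the longest locus and held 16 sites, 9 shared, 3 WT-only and 4 dKO-only. Its TSS site, chr1:167718699-167718887, had a pileup of 84 fragments in WT and 81 in dKO, or 1.001 and 1.30 per 1000000 fragments. It ranked at 58.5 in WT and 79.2 in dKO, had the highest fold enrichment of the locus in both lists, though not the highest dKO pileup, and had a ratio of 0.769 (0.560 to 1.06). The site 8.66 kb upstream ranked at 47.9 in WT and 73.3 in dKO, with a ratio of 0.742 (0.519 to 1.06). These were the 2 sites of the 33 whose interval lay below the overall median. The shared site 22.2 kb into intron 1 also ranked higher in dKO (3.02 in WT, 23.6 in dKO), but its ratio of 0.672 had an interval of 0.392 to 1.15.

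Going the other way at *Cd247*, the shared intron 1 site 14.6 kb from the TSS, chr1:167733317-167733626, had 52 fragments in WT and 20 in dKO and ranked at 45.0 and 1.83, with a ratio of 1.93 (1.13 to 3.41). WT-only sites were at 7.996 kb upstream (percentile 52.0), and at 52.4 kb (2.16) and 65.2 kb (57.6) in intron 1. The weak one at 52.4 kb holds the core motif and, as at the *Cd3d* TSS, had a high local background of 11.0 fragments beside a pileup of 49. The remaining 5 shared sites of the locus moved by less than 20 points.

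Of the dKO-only sites of *Cd247*, those 33.5 kb (percentile 29.9) and 40.2 kb (6.06) into intron 1 had pileups of 36 and 22 fragments. The other 2 stood apart. The intron 5 site, chr1:167788636-167789069, had a pileup of 245 fragments in dKO, more than any other of the 8 genes' sites in either list, and the intron 7 site, chr1:167791154-167791864, had 176. Among the 24363 dKO sites only 66 had a higher pileup than the intron 5 site, and among the 3519 dKO-only sites only 5 did. Their percentiles of fold enrichment were no more than 61.1 and 36.3, beside a local background of 24.4 and 23.9 fragments, against a dKO median of 3.94. MACS2 estimates that background from the same pool within 10000 bp, where the fragments of both sites are themselves counted. A further dKO peak in intron 7, chr1:167792109-167792272, had 74 fragments and missed the 4-fold criterion at 3.02.

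The WT list held no peak over any of these 3 places, although its *Cd247* peaks reached down to a pileup of 22 fragments. The nearest WT site, 65.2 kb from the TSS, had a local background of 7.17 fragments. None of the 56 sites had a near-identical copy elsewhere in the mm9 genome. Whether both dKO replicates carried the fragments in introns 5 and 7 cannot be told from a pool.

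**Figure D3:**
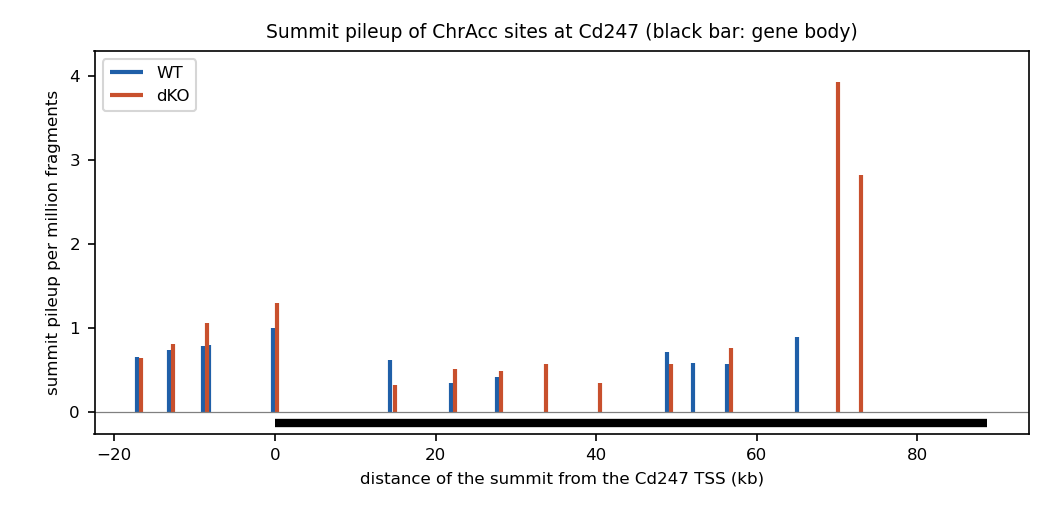
Summit pileup per 1000000 fragments (y axis) at the ChrAcc sites of *Cd247* in WT (blue) and dKO (orange), by distance from the TSS in kb, with the gene body as a black bar. The dKO-only sites in introns 5 and 7 reach 3.94 and 2.83, while every other site of the locus lies between 0.321 and 1.30.

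*Lck*, the kinase that starts TCR signalling, had 11 sites, 5 shared, 4 WT-only and 2 dKO-only, and none of the shared sites moved by 20 points. *Lck* has a distal promoter, used by mature T cells, and a proximal one, used mainly by thymocytes. The site at the distal start, chr4:129250817-129251007, ranked at 26.9 in WT and 31.4 in dKO, with 69 and 53 fragments. The site in intron 1 at the start of the shorter transcripts, chr4:129235616-129236117, ranked at 59.2 in WT and 44.9 in dKO, with a ratio of 1.37 (0.928 to 2.06). The strongest shared site by pileup lay 1.77 kb upstream of the distal start and ranked at 79.5 in WT and 66.7 in dKO, with 132 and 75 fragments and a ratio of 1.31 (0.976 to 1.76). All 3 intervals held the overall median of 1.10, so no difference at either promoter was detectable at this depth.

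Further upstream, at 11.4 and 11.7 kb, WT had 2 neighbouring sites where the dKO list held none. The 2nd of them, chr4:129262573-129262691, was the strongest WT-only site of the 8 genes, with 95 fragments, a fold enrichment of 14.8 and percentile 89.8, and only 49 of the 7846 WT-only sites ranked higher. Its neighbour, chr4:129262275-129262397, had 44 fragments and percentile 34.4. Within intron 1, a WT-only site at 8.19 kb, chr4:129242460-129242753 (percentile 22.9), holds the core motif, and dKO-only sites were at 1.87 kb (29.6) and 12.2 kb (13.4). A WT-only site in intron 6 was barely past the criteria (0.551). The strongest dKO site of the window was at the TSS of *Hdac1*, a histone deacetylase gene that follows *Lck*, at 69.2, beside 67.9 in WT.

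*Zap70*, the kinase that docks on the CD3 chains, had 6 sites, 5 shared and 1 WT-only. Its TSS site, chr1:36818487-36818766, ranked at 73.9 in WT and 77.9 in dKO, with 89 and 63 fragments and a ratio of 1.05 (0.7503 to 1.47). The upstream site at 17.05 kb, the strongest dKO site of the locus, had percentiles of 80.7 and 83.7, and so changed as little as the promoter. In intron 1, 5.15 kb from the TSS, chr1:36823761-36823972 ranked at 29.8 in WT and 64.3 in dKO, which was the largest move towards dKO of the 33 shared sites. Its pileups were 46 and 47 fragments, however, and its ratio of 0.726 (0.473 to 1.11) could not be told from the overall median. It is the only dKO site of the 8 genes with the core motif within 100 bp of its dKO summit. The WT-only site (percentile 20.6) lay beside it, 5.58 kb from the TSS.

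The strongest WT site of the *Zap70* window, chr1:36854413-36854651, lay 35.9 kb from the TSS, in intron 35 of the neighbouring gene *Tmem131*. It had 79 fragments in WT and 35 in dKO, and its percentile was 86.8 in WT and 51.0 in dKO, with a ratio of 1.67 (1.11 to 2.57).

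*Lat*, the membrane adaptor that Zap70 phosphorylates, had 4 sites. Its TSS site, chr7:133512991-133513205, had 77 fragments in WT and 58 in dKO, or 0.918 and 0.932 per 1000000 fragments, and was the strongest of the 8 genes' own TSS sites in both lists, at 79.7 and 87.9. The neighbouring pair of sites at the TSS of *Spns1*, a sphingolipid transporter gene, ranked between 81.0 and 82.7 in WT and between 84.1 and 86.0 in dKO. The 1 WT-only site, 11.5 kb downstream of the TSS, was weak (9.84).

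*Lcp2*, the gene of the adaptor SLP-76, had 6 sites, 4 shared, 1 WT-only and 1 dKO-only. Its TSS site, chr11:33947076-33947247, was weak in both lists, with 35 fragments in WT and 28 in dKO and percentiles of 12.5 and 26. The strongest site in both lists was in intron 3, 17.3 kb from the TSS, at 76.7 and 79.5. The WT-only site, upstream of the TSS, had 49 fragments and percentile 46.6. A dKO-only site 12.5 kb upstream (13.02) stood beside a shared one at 12.9 kb that ranked at 45.5 in WT and 60.3 in dKO.

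Across the loci, 7 shared sites lay within 1 kb of the TSS of the main transcript of *Cd3g*, *Cd3e*, *Cd247*, *Lck*, *Zap70*, *Lat* or *Lcp2*. By fold enrichment all 7 ranked higher in dKO, by 3.12 points at *Cd3g* to 20.7 points at *Cd247*. Of shared sites within 1 kb of any coding TSS, 10 of the 12 at the 8 genes did (83.3%), against 36.3% of all. The 2 that ranked higher in WT were at the *Ube4a* TSS and at the start of the shorter *Lck* transcripts. The direction turned with the measure at some of the 7. By pileup 4 of the 7 ranked higher in dKO, with *Cd3g*, *Cd3e* and *Zap70* higher in WT, and by -log10 p 5 did, with *Cd3g* and *Cd3e* higher in WT. At q under 1e-10 also 5 did, with *Cd3e* and *Lck* higher in WT. Their median pileup ratio was 0.985, beside 1.10 over all shared sites. Away from any coding TSS by more than 1 kb there were 42 sites, among them 13 of the 14 WT-only sites (92.9%, against 79.1% of all WT-only sites) and 8 of the 9 dKO-only sites (88.9%, against 88.3%).

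**Figure D4:**
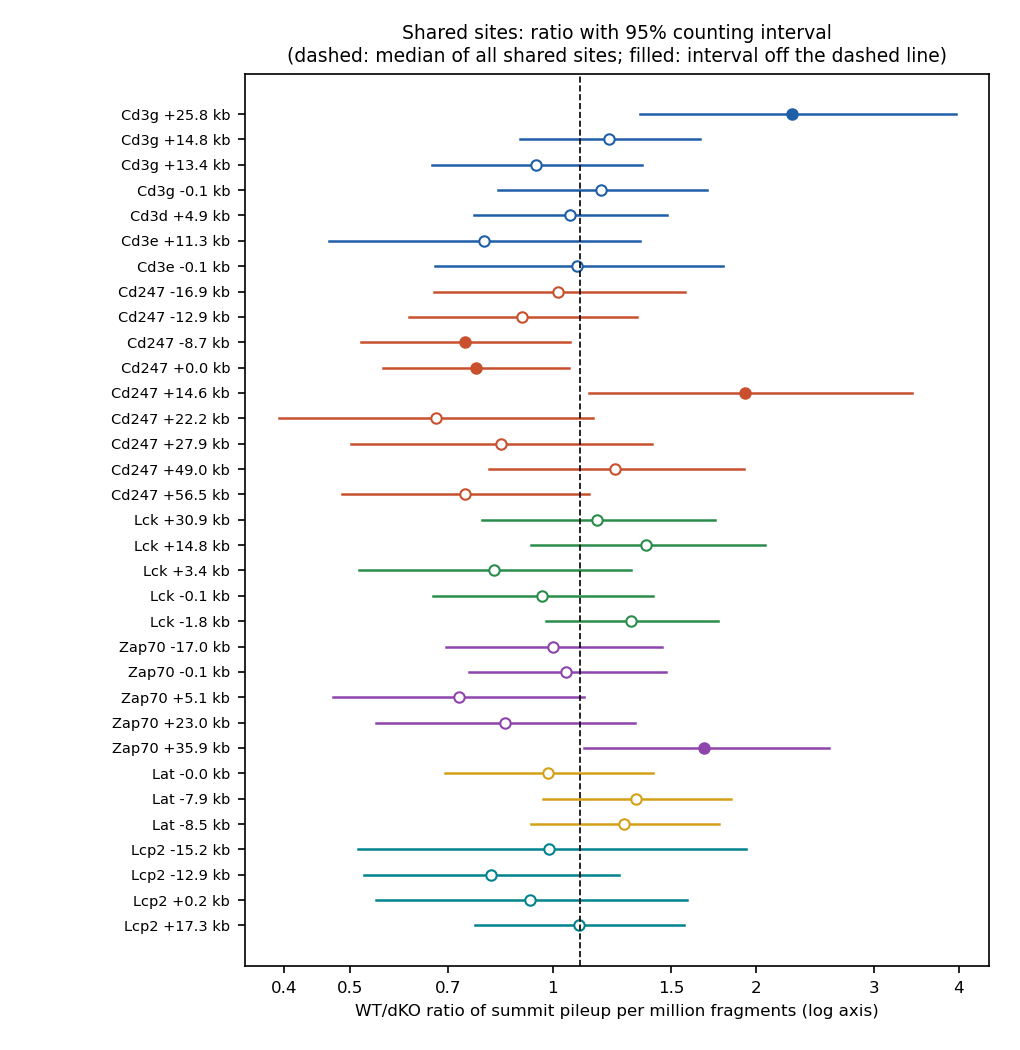
Ratio of summit pileup per 1000000 fragments, WT over dKO, on a log axis, for the 33 shared sites, each named by its nearest gene and the distance from that gene's TSS in kb (positive downstream). Bars are exact 95% counting intervals, the dashed line is the median of all shared sites (1.10), and filled points are the 3 sites above and the 2 sites below that line with their whole interval.

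The WT-only sites of high rank were mostly narrow. Of the 5 with a percentile of at least 50, 3 were at most 120 bp wide, with a median of 119 bp, while the 17 shared sites of the 8 genes at that rank were 242 bp wide at the median in WT. Over all WT sites of that rank, 38.5% of the WT-only and 7.34% of the shared sites were at most 120 bp wide, beside a fragment size of 98 bp. Over all dKO sites of that rank, 53.1% of the dKO-only and 10.3% of the shared sites were at most 120 bp wide, so narrow sites were not particular to WT. The dKO-only *Cd247* sites in introns 5 and 7 were 434 and 711 bp wide, and of these only the intron 5 site was of that rank.

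The Tcf/Lef core ATCAAAG was found within 100 bp of the summit, on either strand, in 6 of the 47 WT sites (12.8%, 5.98 to 25.2), against 3.81% of all WT sites. Of the 14 WT-only sites 4 held it (28.6%, 11.7 to 54.6), among them the *Cd3d* TSS site and sites of *Cd247* and *Lck*, against 6.98% of all WT-only sites. Of the 33 shared sites 2 held it around their WT summits (6.06%, against 2.61%), the sites in *Ube4a* and in *Zap70* intron 1. In dKO 1 of 42 sites held it around the dKO summit (2.38%, against 2.42% of all dKO sites), and none of the 9 dKO-only sites did, which for a count of 0 allows a share of up to 29.9% by the Wilson interval. The contrast depended on the window searched. Over the whole peak 5 of the 47 WT sites held the core (10.6%, against 4.11% of all) and 3 of the 42 dKO sites (7.14%, 2.46 to 19.0, against 2.49% of all). The Ets motif stood in 17.02% of the WT sites (against 14.2% of all WT sites) and in 12 of the 42 dKO sites (28.6%, 17.2 to 43.6, against 14.6% of all dKO sites), 2 of its matches being in the *Cd247* TSS site. The same 33 shared sites held it in 6 around their WT summits and in 10 around their dKO summits, which lie at different positions. Sites of 1 list only held it in 2 of 14 in WT and 2 of 9 in dKO. The Runx motif stood in 14.9% of WT and 16.7% of dKO sites (9.67% and 10.6% of all sites), and the E box in 17.02% and 19.0% (12.6% and 12.2%). These are letter matches, which do not show that a factor was bound.

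No site lay between 17.1 and 24.1 kb from these genes, so the window edge of 20 kb passed through an empty stretch. The sites farthest inside it lay between 8.49 and 17.05 kb from a gene in WT and between 5.67 and 17.1 kb in dKO, and the nearest outside it between 24.1 and 39.2 kb in WT and between 24.3 and 39.1 kb in dKO. In WT, percentiles of the former ran from 1.72 to 89.8 and those of the latter from 6.82 to 90.05.

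Downstream and beside these 8 genes, 28 further genes of TCR signalling (kinases, adaptors, guanine nucleotide exchange factors and coreceptors) held 239 sites under the same rule, 208 in WT and 183 in dKO. Of these, 152 were shared, 56 were WT-only (26.9% of the WT sites, 21.4 to 33.3, against 27.6% of all) and 31 dKO-only (16.9% of the dKO sites, 12.2 to 23.0, against 14.6% of all). Among the shared sites 22 ranked at least 20 points higher in WT (14.5%, against 13.6% of all shared sites) and 14 in dKO (9.21%, against 6.78%). By any amount 66 of 152 ranked higher in dKO (43.4%, against 41.4%), and the median difference was 2.83, close to the 2.50 of all shared sites. The median difference of the 8 genes stood on the other side of 0 from that of the wider pathway, while the median pileup ratios were 1.003 and 1.08.

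In that wider pathway some TSS sites moved by 20 points or were called in 1 list only. Those of *Fyb*, an adaptor that binds SLP-76 (59.2 in WT, 23.4 in dKO), *Rasgrp1*, an activator of Ras (42.0 and 22.0), and *Themis*, which acts in thymocyte selection (86.0 and 60.8), ranked higher in WT. That of *Itpkb*, an inositol trisphosphate kinase (21.0 and 45.0), ranked higher in dKO. WT-only TSS sites were at *Grb2* (61.4), *Tec* (37.9), *Nck2* (12.3), *Ptprc* (12.2) and *Was* (6.26), and weak dKO-only ones were at *Tec* (9.15), *Itpkb* (3.99), *Cd2* (3.51) and *Rasgrp1* (0.985). *Grb2* also had a shared site across its TSS, at 36.0 in WT and 23.1 in dKO. The 5 largest differences were dKO-only sites of *Themis* (84.3), *Plcg1* (83.7) and *Cd28* (71.9), a WT-only site of *Ptprc*, which encodes CD45 (74.0), and the WT-only *Grb2* site.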

How the data were processed

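DNase-seq reads of 3 WT and 2 dKO replicates were aligned by the authors to mm9 with Bowtie2 2.2.5, and the uniquely mapped reads of each genotype were pooled. The authors called peaks on each pool with MACS2 2.1.1.20160309, without a control library and at p under 1e-05. The pileup that the authors deposited is an unscaled signal in fragments at the summit. Their fold enrichment, as deposited, is a ratio in which MACS2 divides that pileup by a background estimated within 10000 bp in the same reads, with 1 added to each. The deposited -log10 p and -log10 q belong to that comparison, although the file headers state that q was not calculated. At the sites studied, the background was never under 4.38 fragments in WT or 3.22 in dKO. These lowest values recurred at sites of different loci, so at those sites the background need not be a local estimate. Per the file headers, 2 read files were given for each list and 1 fragment was kept per position, which left 83923734 fragments for WT and 62242963 for dKO. By their names both files hold the same reads, unsorted and sorted by coordinate, and exactly 50% of the fragments were left in each list, so this share need not be a duplicate rate of the libraries.

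From these lists, ChrAcc sites were kept by the study's criteria (at least 4-fold, p under 1e-05, q under 0.05), and sites of both lists that overlapped by at least 1 bp were merged as shared. A site's percentile is that of its fold enrichment within its own list (the highest where several peaks fell in a site), and a shift is 20 or more points. Pileup ratios per 1000000 fragments carry exact conditional binomial intervals and shares carry Wilson intervals, both at 95%. Counts over fragments and sites that share a pool say nothing of the spread between animals, and no test between genotypes was run. Gene models came from the gencode annotation of mm9, in which *Tespa1* is named 5830405N20Rik, *Syk* is Sykb and *Spi1* is Sfpi1, matched through RefSeq synonyms. Distances run to the TSS of transcript 001, or of the longest transcript. Sequence was read from mm9 (samtools 1.23.1, pysam 0.24.0), and copies were searched with blastn 2.17.0 at 90% identity over 80% of the 201 bp around the summit. Computation used Python 3.11.15, numpy 2.4.6, pandas 2.3.3, scipy 1.17.1 and matplotlib 3.10.9, and the overlap, window and motif steps were tested on simulated data.

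Members, gene lists, motifs and alternatives were chosen with earlier results of these data known. Named were all sites at a TSS, the strongest site of each locus, every site of 1 list only and every shifted site of the 8 genes, and for the other lists their differing TSS sites and the 5 largest differences. Which motif-bearing sequences to print was chosen after their values were seen. A TSS result of the wider pathway and the sequence of a site are not reported here. Alternatives were the lists without the criteria, a fold enrichment of 8, the 20000 most significant peaks of a list, q under 1e-10, an overlap of 50%, a gap of 100 bp, windows of 10 and 50 kb and the gene body, ranks by pileup and -log10 p, shifts of 10 and 30 points, motif windows of 50 bp and of the whole peak and, chosen after seeing the data, the loci without *Cd247*.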

Additional observations from a re-analysis of the deposited data

How the results depend on the processing

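No paired analysis was possible because the replicates were pooled before peak calling, and for the same reason no replicate could be left out. Of the values recomputed under the alternatives, 75 stayed close and 36 did not. All but the median pileup ratio of the 8 genes were counts of sites, for which close meant within 1.5 times. For that ratio it meant a log change smaller than the standard deviation of the log ratios. The order of WT and dKO counts turned under some alternatives. Several alternatives also changed the number of sites counted, and the part of this in the 36 counts was not tested. With a fold enrichment of at least 8, the 8 genes had 25 WT and 21 dKO sites, 17 shared, 8 WT-only and 4 dKO-only. Of the 17, 14 ranked higher in dKO (82.4%, against 43.1% of all shared sites). The wider pathway then had 26 WT-only and 17 dKO-only sites, and its shares were not computed under the alternatives. At the 8 genes 32% of WT sites were then WT-only and 19.05% of dKO sites dKO-only, against 25.97% and 14.69% of all. Within the gene body the 8 genes had 17 WT and 18 dKO sites, 12 shared, 5 WT-only and 6 dKO-only. There 29.4% of WT sites were WT-only and 33.3% of dKO sites dKO-only, against 27.6% and 14.6% of all. Of the 12 shared sites, 8.33% shifted towards WT and 25% towards dKO, against 13.6% and 6.78% of all shared sites. By any amount 9 of the 12 ranked higher in dKO (75%, against 41.4%). A window of 50 kb gave 71 WT and 22 WT-only sites (31.0%, against 27.6% of all). A window of 10 kb left 1 site shifted towards WT and 4 towards dKO (3.85% and 15.4%, against 13.6% and 6.78% of all shared sites).

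Among the 20000 most significant peaks per list, the 8 genes had 9 WT-only and 13 dKO-only sites (14 and 9 as reported), 1 site shifted towards WT and 7 towards dKO, and the pathway had 32 WT-only and 33 dKO-only sites, 14 shifted towards WT and 22 towards dKO (22 and 14 as reported). The whole lists turned in the same direction. Of all shared sites, 10.4% shifted towards WT and 13.4% towards dKO at this setting, against 13.6% and 6.78% as reported. At the 8 genes these shares were 4.35% and 30.4%. At q under 1e-10 the pathway had 16 dKO-only sites and 35 shifted towards WT, and with the lists as deposited 7 shifted towards dKO. Over the whole lists, 11.2% of dKO sites were dKO-only and 18.7% of shared sites shifted towards WT at q under 1e-10. With the lists as deposited 5.05% of all shared sites shifted towards dKO. Ranked by pileup, 4 sites of the 8 genes shifted towards WT and 2 towards dKO (3 and 4 as reported), and 16 of 33 ranked higher in dKO. These shifts were 12.1% and 6.06% of the shared sites, against 14.1% and 5.82% of all shared sites. A shift of 10 points gave 6 towards WT and 10 towards dKO (18.2% and 30.3%), against 30.2% and 17.2% of all shared sites. A shift of 30 points gave 3 towards WT and 1 towards dKO (9.09% and 3.03%), against 5.69% and 2.66% of all shared sites. The Tcf/Lef core was within 50 bp of the summit in 3 WT and 0 dKO sites (6.38% and 0%, against 1.91% and 1.08% of all). It was within the whole peak in 5 WT and 3 dKO sites (10.6% and 7.14%, against 4.11% and 2.49% of all). Without *Cd247*, an alternative chosen after seeing the data, 5 dKO-only sites and 1 site shifted towards dKO remained, so that locus held 3 of the 4 shifts towards dKO. The remaining counts were 17.2% of the dKO and 4.17% of the shared sites, against 14.6% and 6.78% of all.

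Pooling hides whether both dKO replicates share a site. The WT pool was 1.35 times deeper than the dKO pool, and its part in the WT-only counts was not tested beyond the lists of 20000 peaks above.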

Other observations

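The 10 counterpart genes that serve the same steps in B, NK and myeloid cells (*Cd79a* and *Cd79b*, the signalling chains of the B cell receptor, *Fcer1g*, *Hcst* and *Tyrobp*, chains of Fc and NK receptors, and *Syk*, *Lyn*, *Btk*, *Blnk* and *Lat2*, their kinases and adaptors) held 29 sites under the same rule, 24 in WT and 22 in dKO. Of these, 17 were shared, 7 were WT-only (29.2% of the WT sites, 14.9 to 49.2, against 27.6% of all) and 5 dKO-only (22.7% of the dKO sites, 10.1 to 43.4, against 14.6% of all). None of the 17 shared sites moved by 20 points, which allows a share of up to 18.4% in each direction by the Wilson interval. Of all shared sites 13.6% did so towards WT and 6.78% towards dKO. None of the 10 genes had a WT site within 1 kb of its TSS, and in dKO *Hcst* had a weak one (percentile 4.63).

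*Syk*, the counterpart of *Zap70* in B cells, had 5 sites in WT, of which the strongest ranked at 67.5 and 65.8 and none in dKO. *Cd79b* had a dKO-only site 11.2 kb upstream of its TSS that ranked at 84.8, the highest of the counterpart sites found in 1 list only, and *Lat2* had a WT-only site 2.21 kb upstream at 67.5. *Hcst* and *Tyrobp*, which are neighbours on chromosome 7, shared 3 dKO-only sites, the strongest at 37.0.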
